A study of Rattus norvegicus with 20 samples.

Results

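Rat bone marrow mesenchymal stromal cells (MSCs) kept on a soft surface were compared between the first and the third week of culture. The 6 libraries were taken by their labels, with no measured value used, as 3 libraries after 1 week and 1 passage on 2 kPa (1w2) and 3 libraries after 3 weeks and 3 passages on 2 kPa (3w2), out of 20 libraries in the series. Bulk polyA RNA-seq counts per gene were used. The cells came from the femurs and tibias of female Wistar rats, 1 rat per batch, and were isolated straight onto gelatin-coated silicone. Every group had an initial expansion passage, which was already on its own soft or stiff surface. Whether the stated weeks include that passage is not given. All groups shared magnetic enrichment with antibodies to CD54 and CD90 that was meant to remove haematopoietic cells, and weekly trypsinization at 80% confluence. For comparison, 3 libraries each after 1 and 3 weeks on 100 kPa (1w100, 3w100) and 2 libraries after 5 weeks on 2 kPa (5w2) were used. The age of the rats is not given in the sources used here. The replicates were stated to be MSCs from different rats, but the labels do not say which rat gave which library.

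MSCs are adherent stromal cells of the marrow that can form bone, fat and cartilage and that secrete factors acting on neighbouring cells. A surface as soft as healthy skin limits their activation into contractile myofibroblasts, and a surface as stiff as scar promotes it. MSCs are expanded by repeated detachment and reseeding, and expression programmes are known to shift with time in culture. The comparison of 3w2 with 1w2 gives the change over time under the soft condition, in which the study primes cells.

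The libraries held 16473534 to 18581675 counts in 1w2 and 16127907 to 21720761 in 3w2. Of 30560 Ensembl gene identifiers, 14034 passed the filter on low counts and were tested. The files used here do not pair these identifiers with gene symbols, so genes are described in groups by direction, size and abundance, and 4 genes by identifier. For the same reason the labelled cell type could not be checked against its markers, and markers of other cell types were not analysed here. With every library thinned to the smallest total, 16557, 16547 and 16324 genes had a count in 1w2 replicates 1 to 3, and 15954, 15749 and 16328 in 3w2. These ranges touched, with 3w2 replicate 3 just above 1w2 replicate 3. The TMM scaling factors, which correct for composition, were 1.04 to 1.11 in 1w2 and 0.969 to 1.02 in 3w2 and did not overlap.

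The 6 libraries separated by week. In a principal component analysis of log2 CPM (counts scaled to a common library size) over the tested genes, PC1 held 61.8% of the variance. On PC1 the 1w2 libraries lay at -59.4, -30.1 and -53.0, and the 3w2 libraries at 52.4, 64.5 and 25.6. The groups did not overlap, and 1w2 replicate 2 and 3w2 replicate 3 were the libraries nearest the other group. Euclidean distances over the same genes were 58.0 to 80.4 within 1w2, 68.2 to 81.1 within 3w2 and 83.8 to 132 between the groups. The smallest distance between the groups was again that of 1w2 replicate 2 and 3w2 replicate 3. By the biological coefficient of variation, replicate spread was alike in both groups, at 0.217 in 1w2 and 0.215 in 3w2. The median SD on the log2 scale was larger in 1w2, at 0.199 against 0.167 in 3w2. The counts of every replicate pair differed beyond sampling noise (chi-square per degree of freedom of at least 22.6), so no library was counted as a duplicate.

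**Figure D1:**
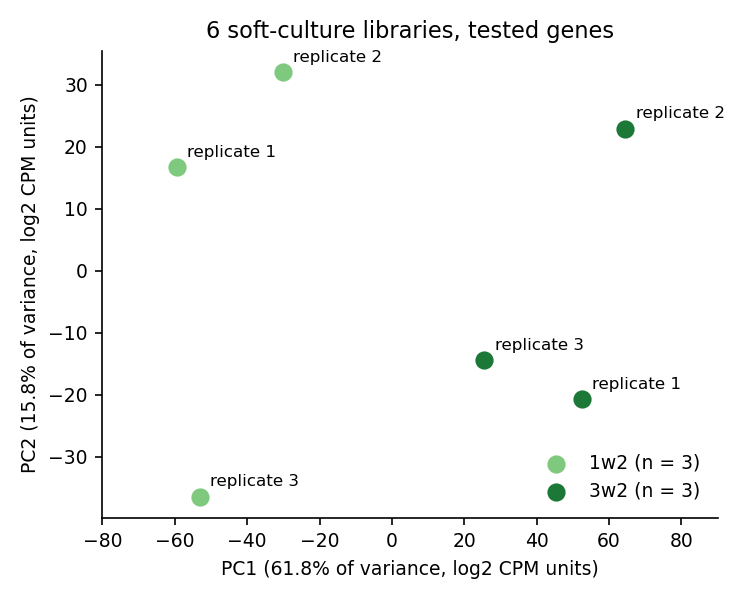
Principal component analysis of log2 CPM for the 6 soft-culture libraries, with PC1 (61.8% of the variance) on the horizontal and PC2 (15.8%) on the vertical axis and each point 1 library. The 1w2 libraries lie on the left and the 3w2 libraries on the right, with 1w2 replicate 2 and 3w2 replicate 3 closest to the middle.

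From 1 to 3 weeks on soft surfaces, 1127 differentially expressed genes (DEGs) were called by edgeR's quasi-likelihood test at a Benjamini-Hochberg adjusted p below 0.05, which was 8.03% of the genes tested. Of these, 523 rose (3.73% of tested genes) and 604 fell (4.3%). In bulk RNA, fewer cells of a type and less RNA per cell cannot be told apart. DESeq2 called 1574 genes, and 1108 genes were called by both tools, 7.9% of those tested. The 1w2 and 3w2 libraries did not overlap in CPM for 1114 of the 1127 DEGs, against 28.5% of all tested genes. The DEGs were called from these same libraries, so this separation largely follows from the call and carries no test. The smallest edgeR adjusted p was 5.62e-05. The count and its split depended on single libraries. There were 464 DEGs without 1w2 replicate 1 (151 rose and 313 fell), 537 without 3w2 replicate 1 (219 and 318) and 604 without 3w2 replicate 2 (272 and 332).

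The rises and falls differed in size. Folds were taken between the pooled CPM of the groups, with a group of fewer than 3 summed counts set to 3, so that folds against such groups are lower bounds. The 523 genes that rose had a median fold of 1.72, and 315 of them rose by less than 2-fold. Another 116 rose 2- to 4-fold, 49 rose 4- to 8-fold and 43 rose 8-fold or more. The 604 genes that fell had a median fold of 6.04. Here 165 fell by less than 2-fold, 89 fell 2- to 4-fold, 79 fell 4- to 8-fold and 271 fell 8-fold or more. Thus 44.9% of the falling and 8.22% of the rising genes were in the 8-fold class. The class of 8-fold falls held 206 to 292 genes with any 1 of the 6 libraries left out. The class of 8-fold rises held 16 to 48 genes, with 16 without 1w2 replicate 1, 26 without 1w2 replicate 3 and 19 without 3w2 replicate 1.

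**Figure D2:**
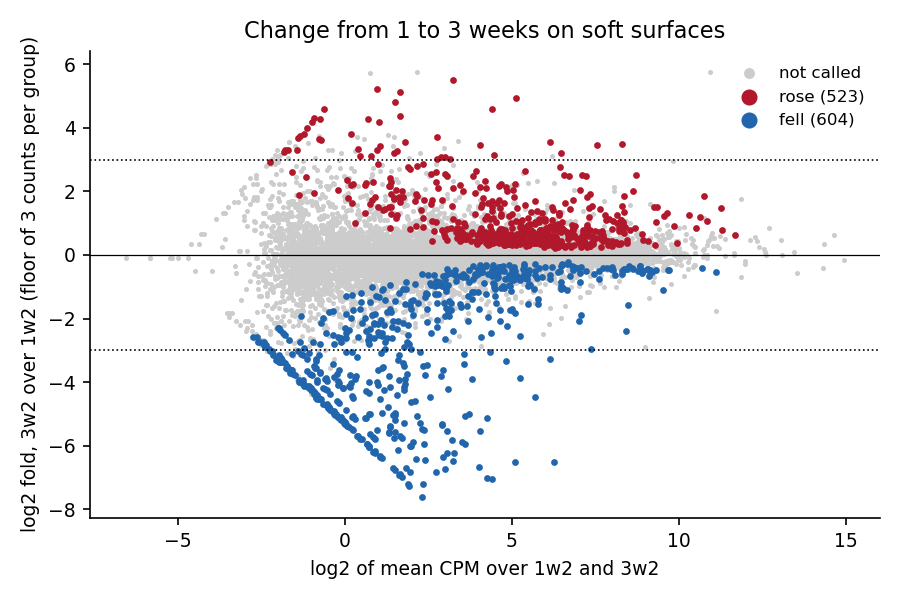
Log2 fold of 3w2 over 1w2 against the log2 of the mean CPM of both groups, with 1 point per tested gene, red for the 523 genes that rose, blue for the 604 that fell and grey for the rest. Dotted lines mark 8-fold change, and the blue points along a slanting edge at the lower left are genes at the floor of 3 counts in 3w2.

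The rises and falls also differed in abundance. Classes were set by the mean over the 20 libraries, 14 of them after week 1, so the change itself moves falling genes towards the lower and rising genes towards the higher classes. Among genes with a mean below 1 CPM over the 20 libraries, 17 rose and 194 fell of 1796 tested. At 1 to 10 CPM, 81 rose and 223 fell of 3602. At 10 to 100 CPM 277 rose and 138 fell of 6885, and above 100 CPM 148 rose and 49 fell of 1751. DEGs made up 11.7%, 8.44%, 6.03% and 11.3% of these 4 classes, in order of abundance. The median pooled level of the rising genes went from 29.9 CPM in 1w2 to 50.7 CPM in 3w2, and that of the falling genes from 6.18 to 0.641 CPM. The median standard error (SE) of a log2 fold change, derived from the edgeR test, was 0.18 for the rising and 0.55 for the falling genes. By this measure the falls were the less precisely measured.

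Out of all counts in a library, the 523 rising genes took 4.08%, 4.72% and 4.38% in 1w2 replicates 1 to 3. They took 8.03%, 7.77% and 6.92% in 3w2, where replicate 3 was lowest and still above every 1w2 library. The 604 falling genes took 3.96%, 3.09% and 3.80% in 1w2 and 2.00%, 1.99% and 2.24% in 3w2. These ranges did not overlap either, and 1w2 replicate 2 and 3w2 replicate 3 were the libraries nearest each other. The genes were chosen by this contrast, so the shares describe their weight and carry no test.

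The 271 genes that fell 8-fold or more carried little of the RNA at either time. Their summed level was 2326, 1112 and 2141 CPM in 1w2 replicates 1 to 3. It was 66.1, 41.0 and 116 CPM in 3w2. The highest 3w2 library lay far below the lowest 1w2 library, and the sums of 1w2 replicate 2 and 3w2 replicate 3 were the closest. In 3w2, 111, 167 and 48 of the 271 genes had no count in replicates 1 to 3, whereas each had a count in every 1w2 library. The genes were chosen by their fall between these libraries, which favours such counts and the gap between the sums. Neither carries a test. Within 1w2, 237 of the 271 genes (87.5%) were lowest in replicate 2, against 33.2% of all tested genes. The genes of this class therefore varied together among the 1-week libraries. The same replicate number was lowest on stiff surfaces, where 228 of them (84.1%) were lowest in 1w100 replicate 2, against 32.4% of all tested genes.

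A smaller group passed out of detection. Among the falling genes, 36 had 0 counts in all 3w2 libraries, where a count of 0 allows up to 3 counts per group for counting error alone, and 105 had fewer than 3 summed counts. Of the 36 genes, 11 had at least 10 counts in every 1w2 library. In the 5w2 libraries 30 of the 36 were also at 0, and in 3w100 6 of the 36 were at 0 in every library and 26 had fewer than 3 summed counts. In the other direction, 2 rising genes had 0 counts in all 1w2 libraries and neither reached 10 counts in every 3w2 library. Over all tested genes, 54 were at 0 in every 3w2 library and 9 in every 1w2 library.

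The 43 genes that rose 8-fold or more summed to 64.3, 178 and 160 CPM in 1w2 replicates 1 to 3. Their sum was 1666, 2141 and 841 CPM in 3w2. The groups did not overlap, which the choice of these genes by their rise favours and which carries no test. Again 3w2 replicate 3 was the 3-week library nearest the 1-week level. All but 1 of the 43 had a count in every 3w2 library.

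**Figure D3:**
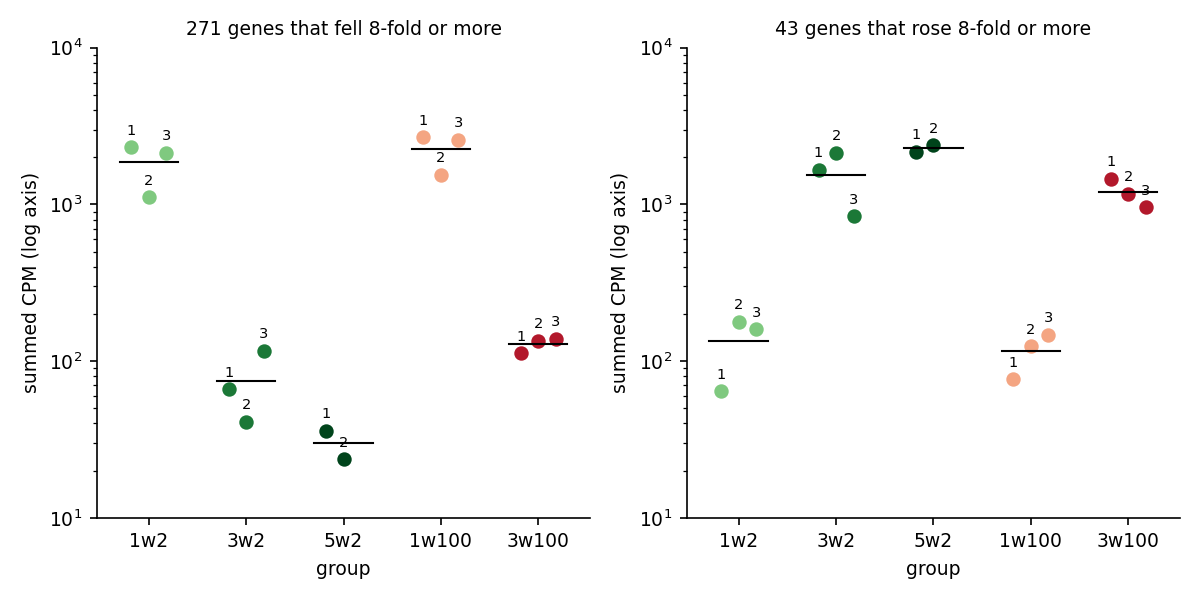
Summed CPM on a log axis of the 271 genes that fell (left) and the 43 that rose (right) 8-fold or more between 1w2 and 3w2, with numbered points for libraries and lines for group means. The falling set lies at 1112 CPM or more in every 1-week library and at 139 CPM or less in every other library shown, and the rising set lies at 178 CPM or less in every 1-week library and at 841 CPM or more in the others.

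Of the rising genes chosen for display, ENSRNOG00000058560 had the larger fitted change. Its counts were 2, 4 and 17 in 1w2 and 530, 269 and 297 in 3w2, or 0.0973, 0.229 and 0.989 CPM against 24.5, 17.2 and 14.0 CPM. All 3-week libraries were high and all 1-week libraries near 0. Pooled CPM was 45.0-fold higher in 3w2 (95% counting interval 29.8 to 71.2), and the fitted log2 fold change was 5.44 (SE 0.66, edgeR adjusted p = 0.000406). Without 1w2 replicate 3, which held 17 of the 23 counts in 1w2, these values were 119-fold and 6.82, and the edgeR adjusted p was 0.00108. It stood at 29.0 and 22.4 CPM in 5w2. On stiff surfaces it was 0, 0.622 and 0.701 CPM in 1w100 and 42.9, 78.1 and 44.9 CPM in 3w100 (log2 fold change 6.99, SE 0.66, edgeR adjusted p = 0.000115). Every 3w100 library was above every 3w2 library, but the change on soft minus that on stiff surfaces was -1.55 (SE 1.05, edgeR adjusted p = 1.00).

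ENSRNOG00000066703 was a gene of low counts. It had 0, 1 and 0 counts in 1w2 and 24, 19 and 14 counts in 3w2, at 1.11, 1.22 and 0.658 CPM. The groups did not overlap, as the rule for its choice required. The ratio of pooled CPM was 53.8 with a wide 95% counting interval of 9.27 to 2161 (edgeR adjusted p = 0.0158). With the single count of 1w2 set to the floor of 3, the fold was 17.9. The call was lost without 1w2 replicate 1 (adjusted p = 0.0900) and without 1w2 replicate 3 (adjusted p = 0.0582) in the same edgeR test. In 5w2 it was at 2.07 and 0.479 CPM. On stiff surfaces it had 0, 0 and 1 counts in 1w100 and 8, 0 and 2 in 3w100 and was not called (edgeR adjusted p = 0.271). The difference between the surfaces was 2.48 on the log2 scale with an SE of 3.02, and its edgeR adjusted p was 1.00, so these counts could not separate the surfaces.

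Both falling genes chosen for display went to 0. ENSRNOG00000021100 had 81, 31 and 64 counts in 1w2, at 3.94, 1.77 and 3.72 CPM, and 0 counts in each 3w2 and each 5w2 library. It was at least 62.2-fold lower in 3w2, against a floor of 3 counts over the group (edgeR adjusted p = 0.000411). On stiff surfaces its counts were 115, 79 and 115 in 1w100 and 0, 0 and 1 in 3w100. ENSRNOG00000063284 had 95, 21 and 41 counts in 1w2, at 4.62, 1.20 and 2.38 CPM, and likewise 0 in each 3w2 and 5w2 library. It was at least 55.5-fold lower in 3w2 by the same floor (edgeR adjusted p = 0.00180), and at least 34.9-fold lower without 1w2 replicate 1. On stiff surfaces it had 112, 40 and 62 counts in 1w100 and 0, 0 and 2 in 3w100. In both genes replicate 2 was the lowest of the 1-week libraries on either surface.

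**Figure D4:**
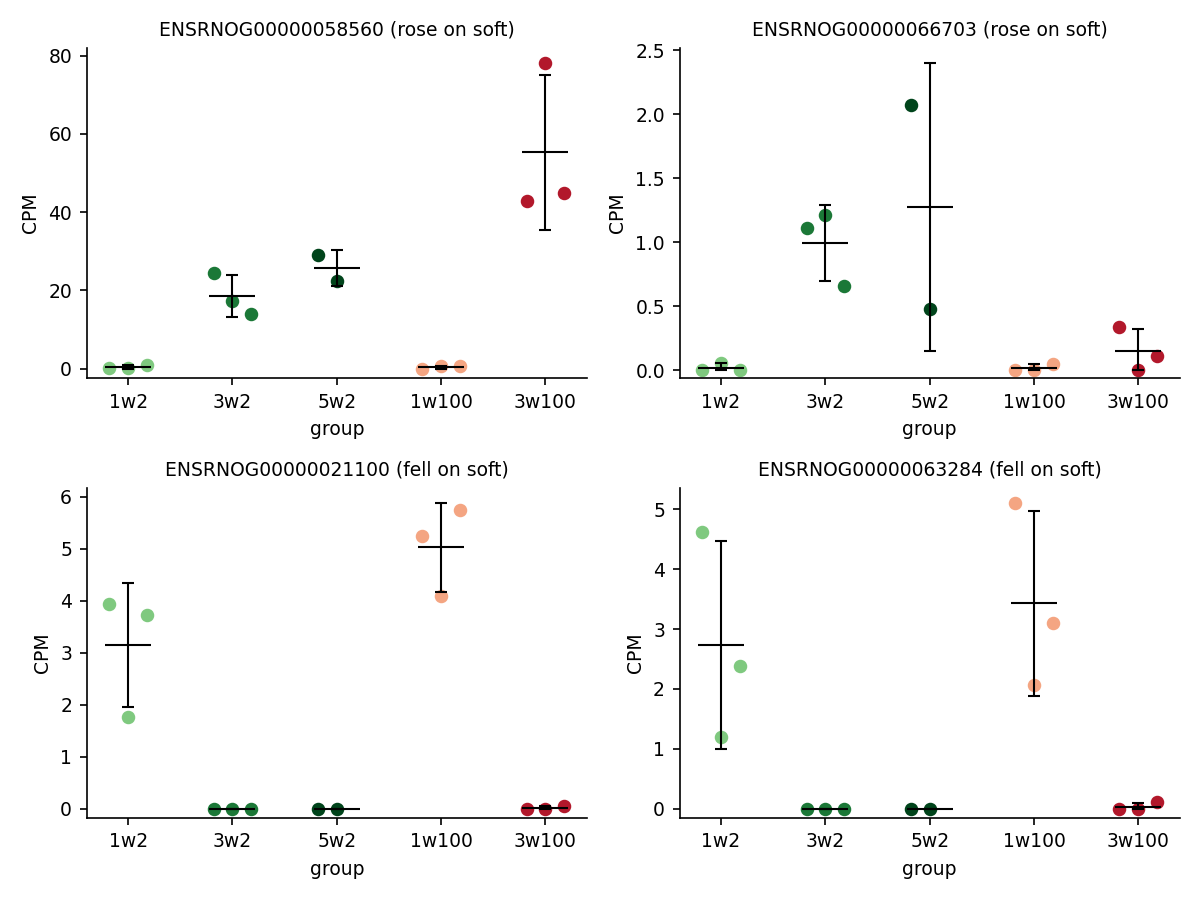
CPM of the 4 genes in each 1w2, 3w2, 5w2, 1w100 and 3w100 library, with points for libraries, horizontal marks for group means and bars for 1 SD, cut at 0 where they would pass below it. ENSRNOG00000058560 is near 0 in every 1-week library and between 14.0 and 78.1 CPM in the others, and the 2 falling genes are at or near 0 in every library after 1 week.

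The same interval on stiff surfaces was set beside the soft one to ask whether the change over time was particular to the soft condition. Between 3w100 and 1w100, 1180 genes were called by the same edgeR test (8.41%), 540 higher (3.85%) and 640 lower (4.56%). With a replicate block on all libraries, 1872 genes were called on stiff and 1802 on soft surfaces. With the block on only the groups compared, these counts were 1093 and 485. Of the 1127 soft DEGs, 748 were also called on stiff surfaces in the same direction, 305 rising and 443 falling. This was 66.4% of the soft and 63.4% of the stiff DEGs, against the 8.41% of all genes called on stiff surfaces, and 0 genes were called in opposite directions. In the model with the block on all libraries, 1143 genes were shared, 63.4% of its soft and 61.1% of its stiff DEGs. The overlap was 400 to 671 genes with any 1 of these 12 libraries left out. Leaving out the replicate 1 library of 1w2, of 3w2 or of 1w100 gave 400, 447 and 444 genes, and leaving out 3w100 replicate 2 gave 497.

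Signs were shared more widely than calls. On stiff surfaces 519 of the 523 genes that rose and 602 of the 604 that fell had the same sign of change, against 77.6% of all tested genes. Among rising genes the median log2 fold was 0.78 on soft and 0.64 on stiff surfaces, and among falling genes it was -2.59 and -2.29. The soft values come from the comparison that chose the genes, which favours larger soft changes. Across the 14034 genes the log2 fold changes on the 2 surfaces had a Pearson r of 0.878 and a Spearman rho of 0.720, and r was 0.809 to 0.877 with any 1 of the 12 libraries left out. This is a correlation across genes, which are not independent replicates. The surfaces share no library, but same-numbered 1w2 and 1w100 libraries deviated together from their group means, with r of 0.626, 0.650 and 0.777 across genes.

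**Figure D5:**
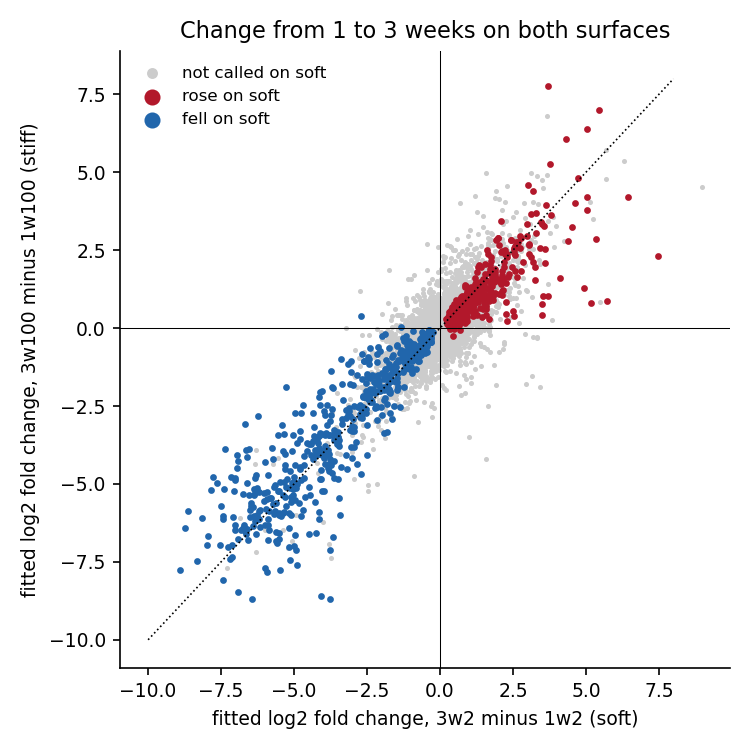
Fitted log2 fold change from 1 to 3 weeks on stiff surfaces against that on soft surfaces, with 1 point per tested gene, red and blue for genes that rose and fell on soft surfaces, and a dotted line of equal change. Of the coloured points, 1121 of 1127 have the same sign on both axes (r = 0.878 over all 14034 genes).

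The test of the difference itself, the change on soft minus the change on stiff surfaces, called 0 genes (0%) with edgeR. Unadjusted edgeR p fell below 0.05 for 222 of the 14034 genes, the smallest adjusted p was 1.00, and DESeq2 also called 0 genes. Those 222 are a smaller share than the 0.05 reached when no gene differs, so the test was strict here. The model had no replicate block, so deviations shared by same-numbered 1w2 and 1w100 libraries stayed in its spread. With a replicate block edgeR also called 0 genes. The lack of calls therefore does not show equal change on the surfaces. The median SE of this difference was 0.26 on the log2 scale, and it was 0.90 for the 443 genes that fell on both surfaces. Differences of that order were not detectable with these replicates in this unblocked model. Of the 379 soft DEGs not called on stiff surfaces, 218 rose and 161 fell. The rising ones had a median log2 fold of 0.74 on soft and 0.42 on stiff surfaces, and the falling ones -0.89 and -0.50. On stiff surfaces 214 and 159 of them had the same sign. They are therefore not shown to be particular to the soft surface. The remaining 6 of the 379, of opposite sign on the 2 surfaces, comprised 4 that rose and 2 that fell on soft surfaces. Their unadjusted edgeR p for the difference was 0.00165 to 0.0225. Picking genes with a called soft change and an opposite stiff sign favours such low values. None passed the adjusted threshold, and their stiff changes were 0.01 to 0.40 in size on the log2 scale.

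The levels reached at 3 weeks were compared with those at 5 weeks on soft surfaces. The comparison of 5w2 with 3w2 shares the 3w2 libraries with the one above, so values are given side by side. edgeR called 0 genes between 5w2 and 3w2 (0%), with a smallest adjusted p of 0.113, and 1315 genes had an unadjusted p below 0.05, 369 higher and 946 lower. DESeq2 called 107, of which 9 were higher and 98 lower in 5w2. The median log2 CPM of the genes that rose was 4.89 in 1w2, 5.67 in 3w2 and 5.79 in 5w2, and that of the genes that fell was 2.54, -0.58 and -1.57. The 5w2 group has replicates 1 and 2 only, while the 3w2 values include replicate 3, the 3-week library nearest 1w2. Whether this adds to the step from 3w2 to 5w2 was not tested.

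The summed levels of the 8-fold groups in 5w2 lay outside the range of the 3w2 libraries, on the side away from 1w2. The 271 falling genes summed to 36.0 and 23.7 CPM in 5w2, both below every 3w2 library. The 43 rising genes summed to 2170 and 2382 CPM, both above every 3w2 library, the highest of which was at 2141 CPM. Their median level did not move in this way. It was 4.62 and 2.49 CPM in 5w2, inside the 3w2 range of 2.16 to 5.45 CPM. The higher sum therefore does not describe the typical gene of this set. On stiff surfaces the falling set went from 2677, 1550 and 2580 CPM in 1w100 to 112, 135 and 139 CPM in 3w100. The rising set went from 76.9, 125 and 147 CPM to 1464, 1168 and 960 CPM. In both sets the 1- and 3-week libraries on stiff surfaces did not overlap. The genes were chosen on soft surfaces, but same-numbered 1w2 and 1w100 libraries deviated together, so the choice is not independent of the stiff libraries. This gap carries no test.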

How the data were processed

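Groups and replicate numbers were taken from the labels. The authors trimmed reads with TrimGalore!, aligned them (HISAT2, build mRatBN7.2), ran FeatureCounts and deposited raw counts per Ensembl gene for 20 libraries. Tool versions, the strand setting and the treatment of multimapping reads were not given in the sources used here, which leaves overlapping and near-identical genes uncertain.

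Counts were tested with edgeR 4.0.16 under R 4.3.3 (scaling by TMM, filterByExpr with a minimum count of 10 and total of 15, quasi-likelihood test, 1 model of 8 groups over 20 libraries, no block). A gene was called at a Benjamini-Hochberg adjusted p below 0.05 over all 14034 genes tested. CPM used TMM-scaled totals, and log2 CPM added a prior count of 2. Each SE was the size of the log2 fold change divided by the square root of the quasi-likelihood F. It is not a fitted standard error and can be unstable for genes without counts in a group. Same-numbered 1w100 and 3w100 libraries deviated together from their group means (r of 0.128, 0.349 and 0.114, each over 0.1), so on stiff surfaces the value with the replicate number as a block is given too. This pairing comes from the data and is weak. The unmatched 1w100 replicate 3 and 3w100 replicate 1 had an r of 0.0979, close to the lowest matched value. DESeq2 1.42.0 was an alternative, with those named in the closing section.

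The libraries follow from their labels, but the choice of these members as a comparison, the gene lists and the rules were made with earlier results of these data known. Of 30560 identifiers, 0 matched a symbol, so all 35 gene lists had 0 measured genes and were not counted. The rule for named genes required symbols. Its part on size was used without that condition, with 2 genes in each direction: the largest fitted changes among 1017 called genes whose libraries did not overlap and whose higher group had a median of at least 1 CPM. The count intervals and floors cover counting error only.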

Additional observations from a re-analysis of the deposited data

How the results depend on the processing

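The count of 1127 DEGs between 3w2 and 1w2 was within 1.5 times its value with DESeq2, RLE factors, no low-count filter, a mean of at least 10 counts and thinning. It was 585 with edgeR on only the groups compared, 646 with a log2 fold change of at least 1 added (68.0% of them falls, against 53.6%), and 3131 unadjusted. With 1 library left out it was 464 to 1229, with 464 without 1w2 replicate 1, 537 without 3w2 replicate 1 and 604 without 3w2 replicate 2. The 8-fold falls numbered 177 with a mean of at least 10 counts, and the 8-fold rises 25 on only the groups compared. Between 3w100 and 1w100 DESeq2 on only the groups compared called 1797, and leaving out 1 library gave 535 to 1008, with 535 without 1w100 replicate 1 and 618 without 3w100 replicate 2. The difference between surfaces had 222 genes unadjusted and 0 calls in every other setting run. Between 5w2 and 3w2 DESeq2 called 107, and 207 on only the groups compared, and leaving out 1 library gave 0 to 1, the 1 without 3w2 replicate 2. Of the 4 identifiers, 3 kept their call in all 15 settings, and ENSRNOG00000066703 was removed by the mean of 10 counts.

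Same-numbered 1w2 and 3w2 libraries deviated from their group means with r of 0.0456, 0.373 and 0.111, so by the criterion of every r over 0.1 the numbers were not taken as a pairing of these groups, and 1w2 replicate 3 correlated best with 3w2 replicate 1. The same r was 0.389, 0.0840 and 0.465 between 3w2 and 3w100 and passed the criterion between 1w100 and 3w100. Whether a number marks 1 rat is not given by the labels. A replicate block in the edgeR model gave 1802 genes between 3w2 and 1w2 on all libraries. On only the groups compared it gave 485 (164 of them 8-fold falls and 25 8-fold rises). Between 3w100 and 1w100 it gave 1872 on all libraries and 1093 on only the groups compared. Between 5w2 and 3w2 it gave 1 and 0 in these settings, and for the difference between surfaces 0 in both. The counts of list members were not run, since 0 symbols matched. Leaving out a 5w2 library left 1 in that group, and its spread was then taken from the other groups.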

Other observations

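The gene sets of 8-fold change were also followed in the 5-week libraries that the comparisons above do not use, as a description. These are cells kept on stiff surfaces for 5 weeks (5w100) and cells moved to the other surface after 3 weeks (3w2→2w100 and 3w100→2w2), with 2 libraries each. The 271 genes that fell on soft surfaces summed to 53.9 and 132 CPM in 5w100, 36.8 and 26.8 CPM in 3w2→2w100, and 52.4 and 118 CPM in 3w100→2w2. All 6 values lay far below the 1-week range of 1112 to 2677 CPM over both surfaces. The 43 genes that rose summed to 2479 and 3008 CPM in 5w100, 2447 and 2525 CPM in 3w2→2w100, and 2228 and 2679 CPM in 3w100→2w2. Each of these sums was above the 64.3 to 178 CPM of the 1-week libraries on either surface, and above every 3-week library. The median level of the 43 genes was 4.73 and 3.08 CPM in 3w2→2w100, inside the 3w2 range of 2.16 to 5.45 CPM. In 5w100 it was 6.24 and 7.66 CPM, and in 3w100→2w2 6.39 and 5.97 CPM, above every 3-week library.

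ENSRNOG00000058560 stood at 25.7 and 33.6 CPM in 3w2→2w100, beside 29.0 and 22.4 CPM in 5w2. It was at 59.3 and 121 CPM in 3w100→2w2 and 55.5 and 95.6 CPM in 5w100. The libraries whose first 3 weeks were stiff were thus higher than those whose first 3 weeks were soft, whichever surface came last. This gene was chosen for its rise on soft surfaces, these levels were looked at afterwards and the difference was not tested.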
